A study of Mus musculus with 24 samples.

Results

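The 9 genes examined belong to the hormone output of the liver: Fgf21, Klb, Gdf15, Inhbe, Angptl4, Angptl8, Fetub, Ahsg and Rbp4. They were taken by gene symbol from the count table, which held all 9 among 15160 genes, and all 9 passed the filter on low counts. All but 1 encode proteins that hepatocytes secrete, and the exception, Klb, encodes the co-receptor through which FGF21 is read. RNA was measured in the livers of male mice aged 5 months by QuantSeq, a method that reads each mRNA only near its 3′ end, with 1 library per mouse.

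The mice were of 2 genotypes and ate 2 diets. All carried floxed alleles of Nfe2l2, the gene of the transcription factor NRF2. The WT mice were NRF2fl/fl littermates with no Cre. The NRF2 KO mice, NRF2fl/(alb), also carried a Cre gene driven by the albumin promoter, which is active in hepatocytes. Deletion in other liver cells was not measured here. The control diet (Con) held 0.86% methionine and the methionine-restricted diet (MR) 0.17%, and neither held cysteine. The diets began at 8 weeks of age, and after 8 weeks on them energy expenditure was measured. The mice then re-equilibrated in home cages, and the paper names no change of diet in that time. They were killed after a 4 h fast. The comparisons used 5 mice on each diet in WT and 6 on each diet in NRF2 KO, without the mice WT_CON_7604 and WT_MR_7612, which the study had removed as outliers. Every replicate was a separate mouse.

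FGF21 is a hormone that the liver releases during fasting and when the diet lacks protein or an essential amino acid, and it acts on fat and brain through FGF receptors paired with β-Klotho, the product of Klb. Shortage of an amino acid is sensed in hepatocytes by the kinases that phosphorylate eIF2α, which raises translation of the transcription factor ATF4, and ATF4 binds the Fgf21 gene. PPARα, the fasting receptor for fatty acids, is another activator of Fgf21. GDF15 is a stress cytokine that lowers food intake through the hindbrain. Inhbe encodes activin E, which restrains fat breakdown in adipose tissue. ANGPTL4 and ANGPTL8 inhibit lipoprotein lipase, fetuin B (Fetub) inhibits proteases and fetuin A (Ahsg) the deposition of mineral, and RBP4 carries retinol in the blood.

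The libraries held 6197291 to 22068338 counts, with a median of 15019792. All 10 hepatocyte markers were detected, and 1 was called lower on MR in WT and 2 in NRF2 KO. Their summed level, in counts per 1000000 (CPM), was lower on MR, with medians of 110868 on Con and 86590 on MR in WT and of 123626 and 102589 in NRF2 KO, whose part in the results was not tested. Reads of Nfe2l2, which fall at the 3′ end of its mRNA, were not fewer in NRF2 KO and so did not check the deletion: they stood at 202 to 339 CPM in the 12 NRF2 KO mice and at 94.0 to 125 CPM in 9 WT mice. By qPCR of the deleted exon the paper found less Nfe2l2 mRNA in NRF2 KO livers, and it reports real-time PCR genotyping of all mice. The library labelled WT_CON_7607 had 324 CPM and so went against its label in this gene. Its score of 14 clock genes, a covariate below, was 0.61. That score was 0.19 to 1.39 in WT Con and -0.42 to -0.13 in NRF2 KO Con. The genotype of this library was not checked further here. Effects on the 9 genes that rest on WT Con, and each stated call of a named gene that changes, are given also without it. Markers of other cells that fell on MR were mainly those of the bile duct (4 of 5 tested in WT, 1 in NRF2 KO), of stellate cells (5 and 4 of 8) and of macrophages (4 and 1 of 8). Without the library labelled WT_CON_7607, 4, 4 and 3 of these fell in WT. The summed levels of these markers in WT were 49.4 to 73.3 CPM on Con and 20.9 to 28.3 CPM on MR for bile duct, 433 to 707 and 373 to 465 CPM for stellate cells, and 331 to 459 and 270.0 to 304 CPM for macrophages. In NRF2 KO the sums for bile duct were 31.8 to 53.6 CPM on Con and 20.7 to 29.0 CPM on MR. Those for stellate cells were 500 to 575 and 416 to 529 CPM there, and those for macrophages 292 to 444 and 252 to 338 CPM. None of the listed markers of these 3 cell types was at 0 in all mice. No marker of adipose tissue, muscle or B cells was called, of 4, 5 and 4 tested. The summed adipose markers had medians of 6414 CPM on Con and 3731 CPM on MR in WT, and of 7020 and 3692 CPM in NRF2 KO. Of the 8 adipose markers 5 were in the count table, without Plin1, Lep and Retn. Whether this sum came from adipose tissue was not tested. In each genotype 1 red blood cell gene fell. In NRF2 KO the 1 pancreatic acinar gene tested fell and 1 endothelial gene rose. In bulk liver, fewer cells of a type and less RNA per cell cannot be told apart.

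The promoters are shown first for the genes whose mRNA moved with diet or whose promoter shares letters with that of Fgf21. They come from RefSeq on GRCm38.p6 and run from 250 bases before to 50 after a transcription start. RefSeq gave one for 8 of the 9 genes, all but Angptl4. Capitals mark a match on either strand to 1 of 3 motifs, which do not overlap each other in these windows: TGATGNAA, the core of the element bound by ATF4 with C/EBP proteins, TGACNNNGC, the antioxidant response element bound by NRF2, and CACGTG, the E-box bound by clock proteins, ChREBP and others. The windows are chr7:45615441-45615740 on the minus strand for Fgf21, chr10:127351799-127352098 on the minus strand for Inhbe, chr9:21835260-21835559 on the plus strand for Angptl8, chr19:38125272-38125571 on the minus strand for 1 of the starts of Rbp4, chr5:65348161-65348460 on the plus strand for Klb and chr8:70632046-70632345 on the minus strand for 1 of the starts of Gdf15.
Fgf21: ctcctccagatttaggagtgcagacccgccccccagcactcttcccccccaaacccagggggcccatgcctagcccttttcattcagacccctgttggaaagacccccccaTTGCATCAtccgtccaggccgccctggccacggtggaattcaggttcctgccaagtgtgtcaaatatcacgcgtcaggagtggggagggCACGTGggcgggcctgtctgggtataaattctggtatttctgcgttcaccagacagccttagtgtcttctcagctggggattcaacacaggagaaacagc
Inhbe: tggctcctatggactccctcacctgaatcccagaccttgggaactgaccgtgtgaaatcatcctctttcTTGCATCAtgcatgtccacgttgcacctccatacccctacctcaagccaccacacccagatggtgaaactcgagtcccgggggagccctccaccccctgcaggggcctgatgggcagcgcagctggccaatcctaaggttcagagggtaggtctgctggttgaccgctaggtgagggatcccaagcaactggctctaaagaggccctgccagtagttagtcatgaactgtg
Angptl8: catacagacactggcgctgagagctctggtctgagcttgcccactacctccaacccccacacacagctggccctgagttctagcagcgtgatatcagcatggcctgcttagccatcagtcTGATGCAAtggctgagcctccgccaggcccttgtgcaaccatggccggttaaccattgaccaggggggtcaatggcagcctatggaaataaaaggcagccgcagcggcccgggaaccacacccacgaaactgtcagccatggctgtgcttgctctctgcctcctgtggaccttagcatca
Rbp4: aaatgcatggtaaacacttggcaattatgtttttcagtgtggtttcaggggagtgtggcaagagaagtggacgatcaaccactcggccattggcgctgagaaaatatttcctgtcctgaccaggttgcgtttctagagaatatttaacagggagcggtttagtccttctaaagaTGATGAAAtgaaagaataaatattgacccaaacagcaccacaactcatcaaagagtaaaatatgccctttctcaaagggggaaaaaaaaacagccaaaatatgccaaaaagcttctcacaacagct
Klb: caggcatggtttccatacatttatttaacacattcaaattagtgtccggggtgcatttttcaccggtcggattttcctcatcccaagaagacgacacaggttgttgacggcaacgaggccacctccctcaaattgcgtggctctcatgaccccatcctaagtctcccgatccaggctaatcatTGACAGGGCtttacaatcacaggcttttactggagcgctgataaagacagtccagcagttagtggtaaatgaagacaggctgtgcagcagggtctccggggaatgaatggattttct
Gdf15: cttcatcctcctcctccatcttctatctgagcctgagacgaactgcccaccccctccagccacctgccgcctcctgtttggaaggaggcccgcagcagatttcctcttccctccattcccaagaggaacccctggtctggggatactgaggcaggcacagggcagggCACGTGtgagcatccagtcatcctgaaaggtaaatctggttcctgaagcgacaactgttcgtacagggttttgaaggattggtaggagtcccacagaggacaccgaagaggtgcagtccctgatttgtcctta

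The ATF4 core was in 4 of the 11 windows searched in these 8 genes, each in a different gene. With the first transcribed base as position 0, its first base lay at -139 in Fgf21 and -181 in Inhbe, both with the letters TTGCATCA, at -130 in Angptl8, with the same letters on the other strand, TGATGCAA, and at -76 in Rbp4. Of 32851 promoter windows of this length, 3.97% held it. The antioxidant response element, in 12.4% of promoters, was at -67 in Klb, at -110 in Fetub and at -12 in Ahsg, and the E-box, in 7.15%, at -50 in Fgf21 and -83 in Gdf15. For Gdf15 and Rbp4 the sequence shown above is that of the start with a match. The other window searched for Gdf15, for Rbp4 and for Fetub held no match to any of these motifs. The matches in these genes therefore belong to the named start and not to every start of the gene. A match of letters is a description of the sequence only and shows no binding.

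Fgf21 rose on MR in both genotypes, more than any other of the 9 genes. The gene (ENSMUSG00000030827) lies at 45613886 to 45615490 of chromosome 7 on GRCm38, on the minus strand, with 3 exons. Its level in the 5 WT Con mice was 10.6, 5.85, 1.46, 7.15 and 4.75 CPM (WT_CON_7602, WT_CON_7603, WT_CON_7605, the library labelled WT_CON_7607 and WT_CON_7608), and in the 5 WT MR mice it was 68.5, 16.7, 25.2, 20.8 and 24.4 CPM (WT_MR_7609, WT_MR_7611, WT_MR_7613, WT_MR_7615 and WT_MR_7616). Every WT MR mouse lay above every WT Con mouse, and WT_MR_7609 lay far above the other 4. In NRF2 KO the lowest, median and highest values were 2.71, 5.53 and 13.1 CPM on Con and 9.29, 21.4 and 63.4 CPM on MR. There the ranges overlapped, although all 6 MR mice lay above the Con mean. These levels rest on 28 to 1516 counts of Fgf21 per library.

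Mean Fgf21 was 5.96 ± 3.34 CPM on Con and 31.1 ± 21.2 CPM on MR in WT (SD, n = 5 each), and 6.73 ± 4.09 and 28.0 ± 20.5 CPM in NRF2 KO (SD, n = 6 each). Values after ± are SDs over the mice of a group also below. In order of mean level, both MR groups stood above both Con groups. The spread between mice was wide on MR, and in NRF2 KO the ranges of the diets overlapped. On each diet the means of the genotypes differed by less than the spread between mice. The log2 fold change on MR was 2.43 (standard error 0.61, adjusted p = 0.013), or 5.38-fold, in WT and 2.11 (standard error 0.55, adjusted p = 0.017), or 4.32-fold, in NRF2 KO, by the quasi-likelihood test of edgeR, adjusted by Benjamini and Hochberg's method over 13336 genes, which gave all p-values below unless another tool is named. The effect of MR in NRF2 KO minus that in WT was -0.32 on the log2 scale (95% confidence interval -2.01 to 1.37, adjusted p = 0.96). NRF2 KO minus WT was 0.17 (-1.12 to 1.45, adjusted p = 0.94) on Con and -0.15 (-1.24 to 0.94, adjusted p = 0.95) on MR. The rise in WT was 1.90 without WT_MR_7609, 2.52 without the library labelled WT_CON_7607 and 1.79 (adjusted p = 0.046) with all 24 mice, and it was 2.91 (adjusted p = 0.057) with a score of clock genes as covariate, a call lost. That score was 0.19 to 1.39 in WT Con and -0.29 to 0.43 in WT MR, and its part in the result was tested only by this covariate.

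**Figure D1:**
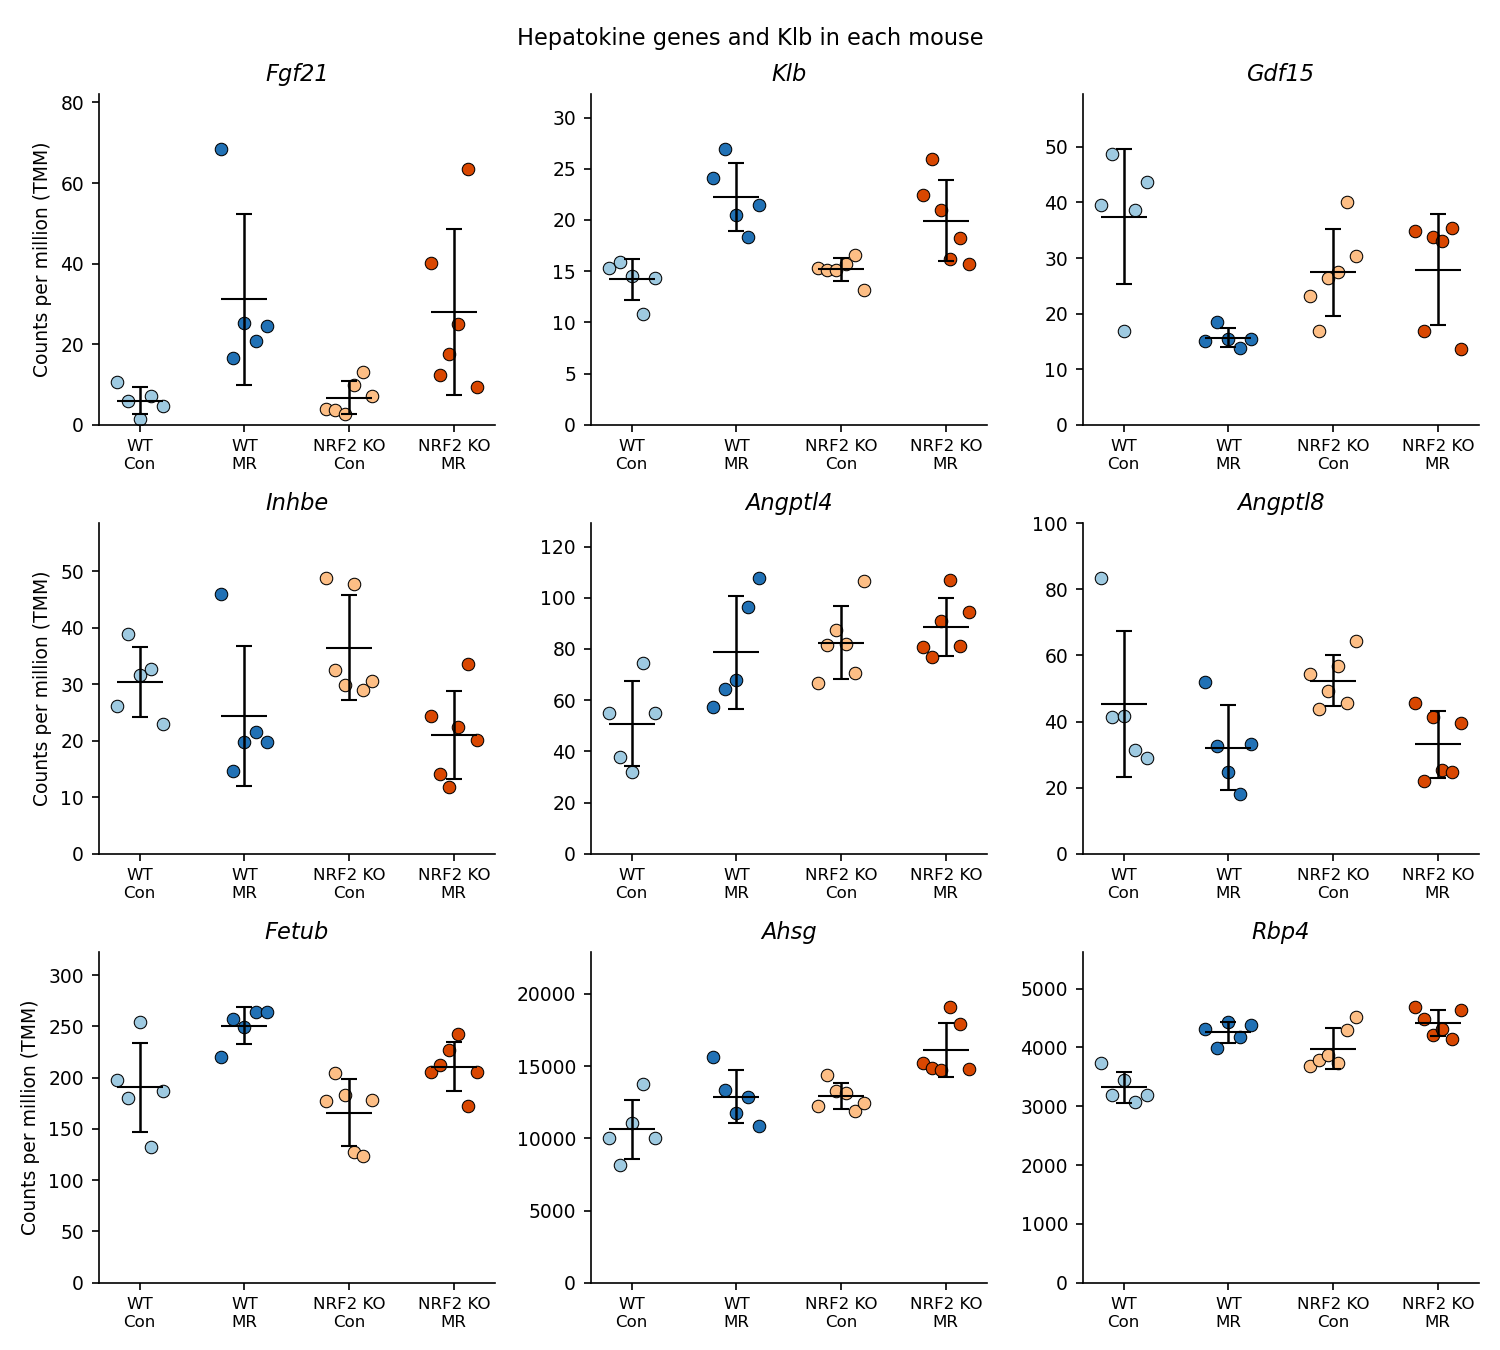
Level of each of the 9 genes in every mouse (CPM, linear axes from 0, 1 panel per gene), on Con and on MR in WT and in NRF2 KO, with points for mice and bars for mean ± SD. The Fgf21 panel shows every WT MR mouse above every WT Con mouse, with WT_MR_7609 at 68.5 CPM, and the Gdf15 panel shows WT MR at 13.9 to 18.5 CPM.

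The genes whose pattern over the 22 mice was most like that of Fgf21 were sought by the root mean square difference of their centred log2 CPM, over 11996 genes with at least 1 CPM on average. They were Gpat3 (0.75), an enzyme of triglyceride synthesis, Gadd45b (0.77), a stress-induced gene, 4930458D05Rik (0.77), Aldh18a1 (0.78), an enzyme of proline synthesis, and Pck2 (0.79), the mitochondrial phosphoenolpyruvate carboxykinase. Fgf21's own root mean square deviation was 1.38, so these genes left much of its variation unmatched. Since they were chosen for likeness to Fgf21 in the same mice, a rise on MR follows from the choice, and their values are a description. Gadd45b went from 1.23 ± 0.58 to 6.91 ± 2.90 CPM in WT and from 1.11 ± 0.59 to 6.77 ± 3.04 CPM in NRF2 KO. Pck2 went from 3.28 ± 1.51 to 16.2 ± 5.17 CPM in WT and from 2.50 ± 1.00 to 13.5 ± 3.80 CPM in NRF2 KO, and every MR mouse lay above every Con mouse of its genotype.

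Genes upstream of Fgf21 or controlled beside it were taken from fixed lists. Of 24 targets of the integrated stress response, the program that ATF4 serves, 16 rose and none fell on MR in WT, and 13 rose and none fell in NRF2 KO. In WT 14 rose once the library labelled WT_CON_7607 was left out. Over all 13336 genes tested 6.91% rose and 6.91% fell in WT, and 6.23% rose and 6.34% fell in NRF2 KO. The median log2 fold change of the list was 0.96 in WT and 0.95 in NRF2 KO, beside -0.01 and -0.00 over all genes. The mitochondrial folate enzyme Aldh1l2 rose from 0.25 ± 0.12 to 4.74 ± 1.08 CPM in WT and from 0.33 ± 0.21 to 3.28 ± 0.55 CPM in NRF2 KO. The serine synthesis enzyme Phgdh rose from 0.21 ± 0.21 to 3.69 ± 1.32 CPM in WT and from 0.12 ± 0.18 to 3.58 ± 1.14 CPM in NRF2 KO. The cystine transporter gene Slc7a11 had at most 3 counts in each WT Con library, for a mean of 0.07 ± 0.07 CPM, and rose to 8.75 ± 4.97 CPM in WT MR (adjusted p = 2.3e-05). In NRF2 KO it rose from 0.15 ± 0.10 to 1.76 ± 1.55 CPM (adjusted p = 0.0042), and on MR it was lower in NRF2 KO than in WT (-2.29, adjusted p = 0.0095).

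Of 22 transcription factors and cofactors known to act on Fgf21, 2 rose and 1 fell on MR in WT, and 3 rose and 1 fell in NRF2 KO. Over all genes tested 13.8% were called in WT and 12.6% in NRF2 KO. For NRF2 KO against WT on Con, 2 of the list were higher and 2 lower, beside 2.07% called of all genes. Once the library labelled WT_CON_7607 was left out, 1 rose and 2 fell on MR in WT, and 3 rose and 2 fell on MR in NRF2 KO. The counts for genotype on Con stayed at 2 and 2. Trib3, a target and inhibitor of the ATF4 pathway, rose from 17.2 ± 4.02 to 31.0 ± 5.63 CPM in WT (0.85, adjusted p = 0.0035) and from 9.52 ± 2.60 to 22.2 ± 3.94 CPM in NRF2 KO (1.23, adjusted p = 1.1e-04). It was also lower in NRF2 KO than in WT on Con (-0.86, adjusted p = 0.0099). Atf4 mRNA itself had log2 fold changes of 0.27 and 0.34 in the respective genotypes (adjusted p = 0.064 and 0.013, the second a call), and its relative Atf5 had 0.61 (adjusted p = 0.023, a call, and 0.053 without that library) and 0.28 (adjusted p = 0.28). Nr4a1, an orphan nuclear receptor, fell by 1.23 on the log2 scale in WT (adjusted p = 0.0066) and had 0.00 in NRF2 KO. Its means on Con and MR were 1.84 and 0.79 CPM in WT and 0.66 and 0.64 CPM in NRF2 KO. Ddit3, the CHOP gene, had -0.27 and -0.14, Ppara -0.31 and -0.41, and Mlxipl, the ChREBP gene, 0.16 and 0.15, none of them past the threshold.

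The targets of PPARα did not move one way. Of 28, 3 rose and 1 fell on MR in WT, and 3 rose and 6 fell in NRF2 KO, with medians of 0.16 and -0.06. Cyp4a31, a fatty acid hydroxylase, had 1.29 (adjusted p = 0.13) in WT, or 1.89 (adjusted p = 0.035) if the library labelled WT_CON_7607 was left out, and rose by 2.01 (adjusted p = 0.015) in NRF2 KO. Ehhadh, of peroxisomal fatty acid oxidation, had 0.80 (adjusted p = 0.25) and rose by 1.31 (adjusted p = 0.042). Plin2, a coat protein of lipid droplets, fell by 0.78 and 0.55 on the log2 scale in the respective genotypes (adjusted p = 0.0041 and 0.023).

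Of 22 genes of lipogenesis induced by insulin and carbohydrate, 1 rose and 2 fell in WT, and 1 rose and 5 fell in NRF2 KO, with medians of -0.31 and -0.16. The elongase gene Elovl5 fell in both, by 1.11 and 0.92 on the log2 scale. Irs2, an insulin receptor substrate, had 0.24 (adjusted p = 0.44) in WT and rose by 1.06 (adjusted p = 6.0e-04) in NRF2 KO. The interaction of Irs2 had an adjusted p of 0.42, so a difference between the genotypes was not shown.

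Klb also rose on MR in both genotypes, by less than Fgf21. The gene (ENSMUSG00000029195) lies at 65348314 to 65384007 of chromosome 5 (plus strand, 5 exons). In WT Con it had 15.4, 15.9, 14.5, 10.8 and 14.4 CPM, and in WT MR 24.1, 27.0, 20.5, 18.4 and 21.4 CPM, in the order of mice given for Fgf21. No WT MR mouse overlapped the WT Con mice, and the lowest value of all was that of the library labelled WT_CON_7607. In NRF2 KO the lowest, median and highest values were 13.2, 15.2 and 16.6 CPM on Con and 15.7, 19.6 and 25.9 CPM on MR, with overlap.

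The means of Klb were 14.2 ± 1.98 and 22.3 ± 3.33 CPM (SD, n = 5 each) in WT and 15.2 ± 1.12 and 19.9 ± 3.97 CPM (SD, n = 6 each) in NRF2 KO. The log2 fold change was 0.66 (standard error 0.13, adjusted p = 0.0014) in WT and 0.39 (standard error 0.12, adjusted p = 0.03) in NRF2 KO. The 2 effects differed by -0.27 (95% confidence interval -0.63 to 0.09, adjusted p = 0.75). Without the library labelled WT_CON_7607 the value in WT was 0.58 (adjusted p = 0.0048). The call in NRF2 KO was lost without any one of KO_CON_7618, KO_CON_7620, KO_CON_7623, KO_MR_7625, KO_MR_7627 and KO_MR_7628, with values from 0.30 to 0.45 over all fits that left out 1 mouse. The genes most like Klb over the 22 mice were Rps20, a ribosomal protein gene (root mean square difference 0.18), and Aldoa, a glycolytic enzyme gene (0.19), against Klb's own deviation of 0.32.

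The receptors that pair with β-Klotho moved in different directions. Fgfr2 rose from 24.6 ± 2.95 to 37.0 ± 7.45 CPM in WT (0.60, adjusted p = 0.011) and from 27.8 ± 6.33 to 40.4 ± 6.32 CPM in NRF2 KO (0.54, adjusted p = 0.012). Fgfr1, the main FGF21 receptor of fat, was low in liver, with group means of 2.57 to 4.78 CPM, and fell in NRF2 KO (-0.62, adjusted p = 0.031) but not past the threshold in WT (-0.29, adjusted p = 0.43). Fgfr4, the hepatocyte receptor for the bile acid hormone FGF15, had -0.23 and -0.31 (adjusted p = 0.24 and 0.067). Fap, a protease that inactivates FGF21, was not analysed here.

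Of 20 genes of FGF21 reception and signalling, Klb among them, 3 rose and 2 fell in WT and 3 rose and 1 fell in NRF2 KO. Egr1, an immediate early gene downstream of ERK, had 21 ± 19.4 and 9.56 ± 3.4 CPM in WT on Con and MR (-1.16, adjusted p = 0.1) and rose from 9.93 ± 4.26 to 59.8 ± 22 CPM in NRF2 KO (2.61, adjusted p = 5.9e-04). It was 1 of only 6 genes, 0.045% of those tested, with an interaction of genotype and diet past the threshold (3.77, adjusted p = 0.023). Dusp6, a phosphatase that limits ERK, fell from 91.6 ± 24.1 to 47.1 ± 5.59 CPM in WT (-0.96, adjusted p = 0.0022) and had 72.8 ± 20.4 and 57.9 ± 7.86 CPM in NRF2 KO (-0.33, adjusted p = 0.22). Spry4, another inhibitor of this pathway, fell by 1.70 on the log2 scale in WT (adjusted p = 0.037) and had -0.15 in NRF2 KO. The interactions of Dusp6 and Spry4 had adjusted p = 0.56 and 0.63.

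**Figure D2:**
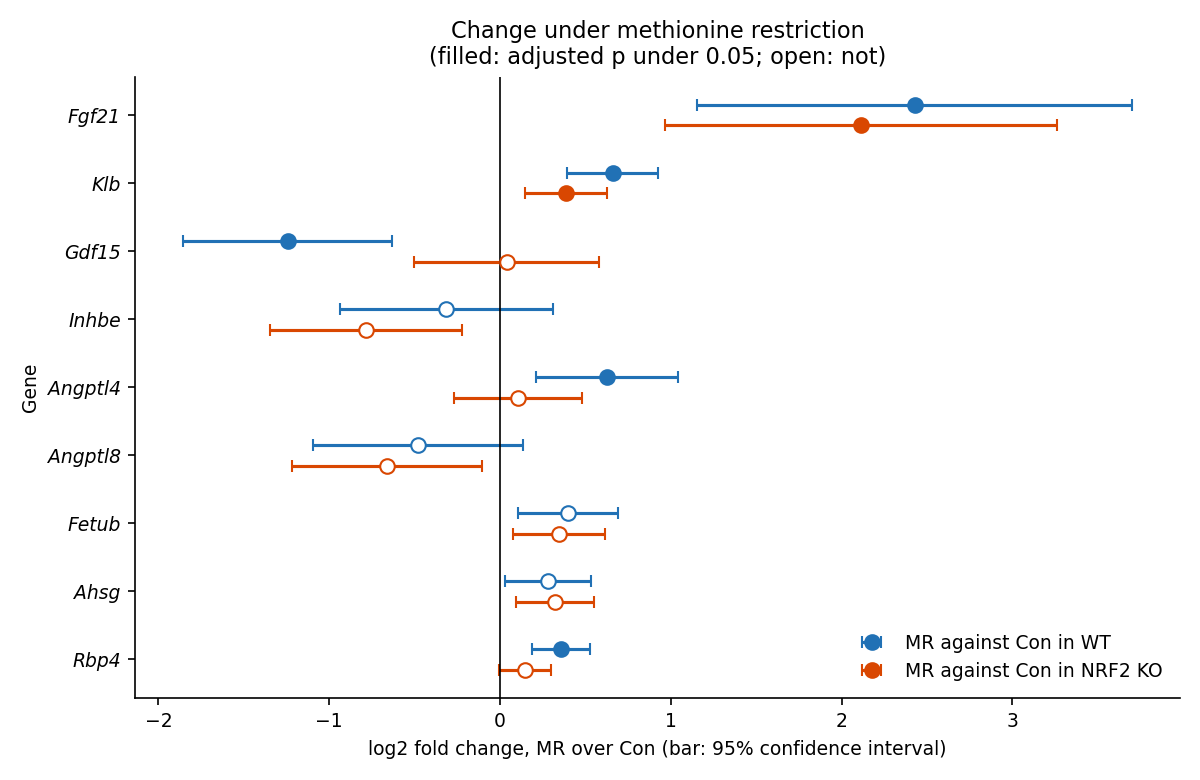
Log2 fold change of the 9 genes on MR against Con, in WT and in NRF2 KO, with bars for the 95% confidence interval and a line at 0. Fgf21 lies near 2 in both genotypes, and Gdf15 lies at -1.24 in WT and 0.04 in NRF2 KO.

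Gdf15 fell on MR in WT, while in NRF2 KO the diets gave like means. The gene (ENSMUSG00000038508) lies at 70629393 to 70632456 of chromosome 8 (minus strand, 2 exons). The WT Con mice had 39.6, 48.7, 16.8, 38.6 and 43.7 CPM and the WT MR mice 15.1, 18.5, 15.5, 13.9 and 15.5 CPM. Only WT_CON_7605, at 16.8 CPM, overlapped the WT MR mice, whose values lay within a narrow range. In NRF2 KO the lowest, median and highest values were 16.8, 27.0 and 40.1 CPM on Con and 13.6, 33.5 and 35.3 CPM on MR, and 4 of the 6 MR mice stood at 33.1 CPM or more and the others at 16.8 CPM or less.

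Mean Gdf15 was highest in WT Con at 37.5 ± 12.2 CPM, then 27.9 ± 9.93 and 27.4 ± 7.77 CPM in NRF2 KO on MR and on Con, which did not differ beyond their spread, and lowest in WT MR at 15.7 ± 1.73 CPM (n = 5 per WT and 6 per NRF2 KO group). The log2 fold change on MR was -1.24 (standard error 0.29, adjusted p = 0.0085) in WT and 0.04 (95% confidence interval -0.50 to 0.58, adjusted p = 0.95) in NRF2 KO. The difference of the 2 effects was 1.28 (95% confidence interval 0.47 to 2.10), with an unadjusted p of 0.0038 from edgeR's test and an adjusted p of 0.4, so it did not pass over all genes. NRF2 KO minus WT was -0.45 (adjusted p = 0.47) on Con and 0.83 (95% confidence interval 0.24 to 1.42, adjusted p = 0.15) on MR, and DESeq2 called the latter (adjusted p = 0.034). Without the library labelled WT_CON_7607 the fall in WT was -1.23 (adjusted p = 0.017). With the clock score as covariate it was -1.07 (adjusted p = 0.098), a call lost, and the part of the bile duct, stellate cell and macrophage markers that fell with it in WT was not tested.

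The genes closest to Gdf15 over the 22 mice were Cdr2 (root mean square difference 0.39) and Ralgps1 (0.40), against a deviation of Gdf15 of 0.60. Chosen for this likeness, Ralgps1, a Ral exchange factor, had log2 fold changes on MR of -0.69 in WT and 0.08 in NRF2 KO, and Cdr2 had -0.65 and -0.29. The mRNAs of Ddit3 and Atf4, whose products are known activators of Gdf15, had the values given above. Their part in the fall of Gdf15 in WT was not tested.

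Inhbe had lower means on MR in both genotypes, without a call in either. The gene (ENSMUSG00000047492) lies at 127348857 to 127354411 of chromosome 10 (minus strand, 2 exons), and an antisense gene, Gm47200, overlaps it. It had 26.1, 38.9, 31.6, 32.8 and 23.0 CPM in WT Con and 46.0, 14.6, 19.8, 21.5 and 19.9 CPM in WT MR. WT_MR_7609 lay above all WT Con mice, and the other 4 WT MR mice lay below all of them. In NRF2 KO the lowest, median and highest values were 29.0, 31.6 and 48.9 CPM on Con and 11.8, 21.3 and 33.7 CPM on MR, and all 6 MR mice lay below the Con mean.

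The means of Inhbe were 30.5 ± 6.17 and 24.4 ± 12.4 CPM (SD, n = 5 each) in WT and 36.5 ± 9.30 and 21.1 ± 7.85 CPM (SD, n = 6 each) in NRF2 KO. The log2 fold change was -0.31 (adjusted p = 0.54) in WT, and -0.70 without WT_MR_7609. In NRF2 KO it was -0.78 (95% confidence interval -1.35 to -0.22, adjusted p = 0.062), and there limma on the deposited normalized values (adjusted p = 0.027) and DESeq2 (adjusted p = 0.016) called it. The effects in the genotypes differed by -0.47 (95% confidence interval -1.31 to 0.37).

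The closest paralog, Inhbc, the gene of activin C, fell in both genotypes, in WT only with the library labelled WT_CON_7607 included. It went from 45.9 ± 10.5 to 31.5 ± 3.34 CPM in WT (-0.54, adjusted p = 0.032, and -0.51, adjusted p = 0.064, without that library) and from 61.9 ± 5.75 to 37.3 ± 10.1 CPM in NRF2 KO (-0.73, adjusted p = 0.0028). In both genotypes the ranges of the diets did not overlap, with all MR mice the lower. Of 17 genes of the activin and inhibin pathway tested, Inhbe among them, none rose and 4 fell in WT and 1 rose and 1 fell in NRF2 KO, with medians of 0.02 and 0.11. In WT only Fst and Fstl1 fell without the library labelled WT_CON_7607, 2 genes in all.

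The others that fell in WT bind activins or belong to the follistatin family. Fst, follistatin, went from 7.10 ± 2.85 to 2.03 ± 1.38 CPM in WT (-1.74, adjusted p = 0.02) and from 3.34 ± 2.23 to 1.25 ± 0.63 CPM in NRF2 KO (-1.36, adjusted p = 0.059). Fstl3 fell by 1.35 on the log2 scale in WT (adjusted p = 0.038), from 1.27 ± 0.55 CPM, and had 0.12 in NRF2 KO. It was also lower in NRF2 KO than in WT on Con (-1.61, adjusted p = 0.034), and both calls of Fstl3 were lost without the library labelled WT_CON_7607 (adjusted p = 0.082 and 0.069). Fstl1, a glycoprotein made by mesenchymal cells, fell by 0.78 on the log2 scale in WT (adjusted p = 0.0051) and had -0.41 in NRF2 KO (adjusted p = 0.088), and the stellate cell markers fell in the same mice by the counts given above, whose part in these falls was not tested.

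Angptl4 was higher on MR in WT and stood at the higher level on both diets in NRF2 KO. The gene (ENSMUSG00000002289) lies at 33773750 to 33781830 of chromosome 17 (minus strand, 7 exons). The WT Con mice had 55.1, 37.9, 32.0, 74.6 and 54.9 CPM and the WT MR mice 57.2, 64.6, 67.9, 96.3 and 108 CPM. The WT groups overlapped only through the library labelled WT_CON_7607, whose 74.6 CPM lay inside the range of NRF2 KO Con. In NRF2 KO the lowest, median and highest values were 66.9, 81.8 and 107 CPM on Con and 76.7, 86.2 and 107 CPM on MR, nearly the same range.

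The means of Angptl4 ran in order WT Con at 50.9 ± 16.7, WT MR at 78.7 ± 22 (SD, n = 5 each), NRF2 KO Con at 82.5 ± 14.1 and NRF2 KO MR at 88.6 ± 11.3 CPM (SD, n = 6 each), and the last 3 did not differ beyond their spread. The log2 fold change on MR was 0.63 (standard error 0.20, adjusted p = 0.041) in WT and 0.10 (95% confidence interval -0.27 to 0.48, adjusted p = 0.77) in NRF2 KO, and the difference of the effects was -0.52 (-1.08 to 0.04, adjusted p = 0.69). NRF2 KO minus WT on Con was 0.70 (95% confidence interval 0.30 to 1.10, adjusted p = 0.064), and 0.88 (adjusted p = 0.011), past the threshold, without the library labelled WT_CON_7607. Without that library the rise in WT was 0.81 (adjusted p = 0.0098), while the call in WT was lost without any one of WT_CON_7602, WT_CON_7603, WT_CON_7605, WT_CON_7608, WT_MR_7615 and WT_MR_7616, in a fit of the WT groups alone (adjusted p = 0.15) and with the clock score (adjusted p = 0.14). The genes closest to Angptl4 over the 22 mice were Lpin2 (root mean square difference 0.22), a phosphatase of triglyceride synthesis, and Eci2 (0.25), of fatty acid oxidation, against a deviation of 0.44.

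Angptl8, a hormone of the fed state, had lower means on MR in both genotypes with no call. The gene (ENSMUSG00000047822) lies at 21835510 to 21837347 of chromosome 9 (plus strand, 4 exons), inside Dock6 on the other strand, which was also counted. How reads of both strands were assigned was not given in the sources used here. It had 83.5, 41.4, 41.7, 31.5 and 28.9 CPM in WT Con and 51.9, 32.7, 24.7, 17.9 and 33.2 CPM in WT MR, and in NRF2 KO 43.7, 51.8 and 64.3 CPM as the lowest, median and highest on Con and 22, 32.4 and 45.5 CPM on MR. The WT groups overlapped widely, and in NRF2 KO all 6 MR mice lay below the Con mean. The means were 45.4 ± 22.1 and 32.1 ± 12.7 CPM (SD, n = 5 each) in WT and 52.3 ± 7.72 and 33.1 ± 10.2 CPM (SD, n = 6 each) in NRF2 KO. The log2 fold changes were -0.48 (adjusted p = 0.31) and -0.66 (95% confidence interval -1.22 to -0.11, adjusted p = 0.11), and DESeq2 called the second (adjusted p = 0.049).

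Of 15 genes of the angiopoietin-like proteins and lipoprotein lipase tested, Angptl4 and Angptl8 among them, 2 rose and 3 fell in WT and none rose and 3 fell in NRF2 KO. Apoc2, the activator of lipoprotein lipase, fell from 10.6 ± 2.25 to 4.91 ± 2.04 CPM in WT (-1.07, adjusted p = 0.0046) and from 7.85 ± 2.51 to 4.01 ± 0.72 CPM in NRF2 KO (-0.98, adjusted p = 0.0048). Apoc3, an inhibitor of the same enzyme, fell by 0.59 and 0.62 on the log2 scale (adjusted p = 0.028 and 0.013). Lpl itself had -0.47 and 0.08, both short of the threshold.

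The fetuin genes lie side by side on the plus strand of chromosome 16 and had higher means on MR in both genotypes, short of the threshold in the fit of all 22 mice and past it in some of the other fits. Ahsg (ENSMUSG00000022868) has 7 exons from 22891277 to 22899449 and Fetub (ENSMUSG00000022871) 8 exons from 22918334 to 22939778. Ahsg had 8167 to 13735 CPM in WT Con and 10858 to 15646 CPM in WT MR, with overlap, and the top of the former was the library labelled WT_CON_7607. In NRF2 KO it had 11894, 12804 and 14387 CPM as the lowest, median and highest on Con and 14763, 15058 and 19111 CPM on MR, with no overlap. Ahsg was the 1 gene of the 9 whose groups did not overlap there, beside 5.45% of all genes tested.

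The means of Ahsg were 10611 ± 2039 and 12889 ± 1813 CPM (SD, n = 5 each) in WT and 12905 ± 903 and 16115 ± 1894 CPM (SD, n = 6 each) in NRF2 KO. Its log2 fold change was 0.28 (adjusted p = 0.13) in WT and 0.32 (95% confidence interval 0.09 to 0.55, adjusted p = 0.058) in NRF2 KO. Once the library labelled WT_CON_7607 was left out, it was called in both, at 0.39 (adjusted p = 0.029) in WT and 0.32 (adjusted p = 0.034) in NRF2 KO. DESeq2 (adjusted p = 0.027), a fit of the NRF2 KO groups alone (adjusted p = 0.027) and scaling by library size alone (adjusted p = 0.009) also called it in NRF2 KO. Fetub had 190 ± 43.6 and 251 ± 18.4 CPM (SD, n = 5 each) in WT and 166 ± 32.9 and 211 ± 23.7 CPM (SD, n = 6 each) in NRF2 KO. Its log2 fold changes were 0.40 (95% confidence interval 0.10 to 0.69, adjusted p = 0.063) and 0.35 (0.08 to 0.61, adjusted p = 0.079), with every MR mouse above the Con mean of its genotype. Leaving out that library gave 0.29 (adjusted p = 0.16) and 0.34 (adjusted p = 0.048, a call). Scaling by library size alone called Fetub in both genotypes (adjusted p = 0.0072 and 0.0028), as did quality weights over all 24 mice (adjusted p = 0.013 and 0.043), and all 24 mice with equal weights called it in WT (adjusted p = 0.029). The 3 other genes tested of the type 3 cystatins and their proteases gave no call, among them Kng1, kininogen (0.05 and 0.15), and Hrg, histidine-rich glycoprotein (-0.09 and -0.16).

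Rbp4 rose on MR in WT by a small and even amount. The gene (ENSMUSG00000024990) lies at 38116629 to 38125281 of chromosome 19 (minus strand, 6 exons). It had 3733, 3198, 3443, 3066 and 3187 CPM in WT Con and 4310, 3985, 4434, 4171 and 4389 CPM in WT MR. Every WT MR mouse lay above every WT Con mouse. In NRF2 KO it had 3682, 3831 and 4516 CPM as the lowest, median and highest on Con and 4141, 4400 and 4693 CPM on MR, with overlap and with all 6 MR mice above the Con mean.

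The means of Rbp4 were 3326 ± 266 and 4258 ± 182 CPM (SD, n = 5 each) in WT and 3982 ± 344 and 4412 ± 225 CPM (SD, n = 6 each) in NRF2 KO. The log2 fold change was 0.36 (standard error 0.08, adjusted p = 0.0052) in WT, and 0.33 (adjusted p = 0.012) without the library labelled WT_CON_7607. In NRF2 KO it was 0.15 (95% confidence interval -0.01 to 0.30, adjusted p = 0.2), and the effects differed by -0.21 (-0.44 to 0.02, adjusted p = 0.69). NRF2 KO minus WT on Con was 0.26 (95% confidence interval 0.10 to 0.42, adjusted p = 0.088), and DESeq2 called it (adjusted p = 0.0051). Hbs1l (root mean square difference 0.07) and Mrpl24 (0.09), genes of ribosome rescue and of the mitochondrial ribosome, were closest to Rbp4, whose own deviation was 0.18.

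Of 18 genes of retinol transport and metabolism tested, Rbp4 among them, 2 rose and 3 fell in WT and 3 rose and 3 fell in NRF2 KO. Stra6l, a receptor for RBP4 in liver, fell from 118 ± 26.0 to 69.2 ± 7.86 CPM in WT (-0.77, adjusted p = 3.7e-04) and from 105 ± 18.1 to 76.9 ± 5.46 CPM in NRF2 KO (-0.45, adjusted p = 0.014). Ttr, transthyretin, the partner of RBP4 in plasma, had -0.28 and -0.35 (adjusted p = 0.17 and 0.06), opposite in sign to Rbp4. Rdh11, a retinal reductase, had 0.34 (adjusted p = 0.39) in WT and rose by 0.68 in NRF2 KO, at the edge of the threshold (adjusted p = 0.05). That call was lost if the library labelled WT_CON_7607 was left out (adjusted p = 0.058), and then of the list 2 rose and 2 fell in WT and 2 rose and 3 fell in NRF2 KO.

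**Figure D3:**
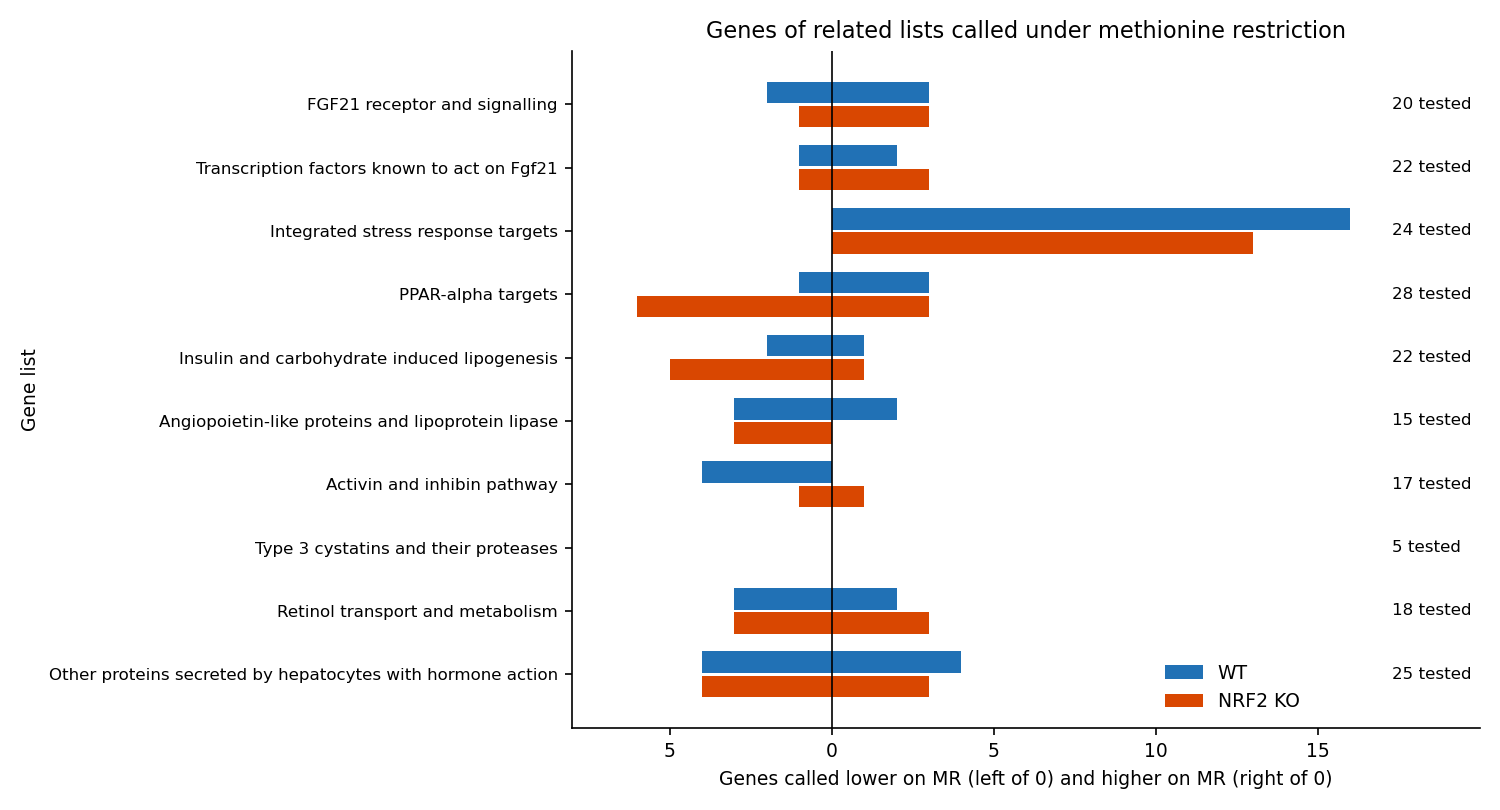
Number of genes called higher (to the right) and lower (to the left) on MR against Con at an adjusted p under 0.05 in each gene list, for WT and NRF2 KO, with the number tested beside each list. The integrated stress response targets are called in 1 direction, with 16 of 24 higher in WT and 13 of 24 in NRF2 KO, and no other list has more than 9 genes called in a genotype.

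Counted together, MR changed 5 of the 9 genes in WT, where Fgf21, Klb, Angptl4 and Rbp4 rose and Gdf15 fell, and 2 in NRF2 KO, where Fgf21 and Klb rose. Over all genes tested, 13.8% were called in WT and 12.6% in NRF2 KO. Fgf21, Klb and Rbp4 had no overlap between the WT diets, beside 9.32% of all genes. The median log2 fold change of the 9 genes was 0.36 in WT, with 6 positive, and 0.15 in NRF2 KO, with 7 positive, beside -0.01 and -0.00 over all genes. If the library labelled WT_CON_7607 was left out, the counts were 6 and 4, beside 1489 and 1771 of all 13441 genes then tested. Inhbe (-0.28), Angptl8 (-0.58) and Fetub (0.29) remained without a call in WT.

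No gene of the 9 was called for NRF2 KO against WT on Con, where 2.07% of all genes were called, on MR, where 1.93% were, or for the interaction. By edgeR's test 3, 2 and 1 of them had an unadjusted p under 0.05 in these comparisons. Over all 13336 genes tested 1917, 1851 and 1008 did. DESeq2 called 2, 1 and 0 of the 9 genes, beside 444 of 13977, 496 of 13101 and 36 of 12808 genes. The median difference of NRF2 KO minus WT was 0.21 on Con, with 7 positive, and 0.03 on MR, with 5 positive. The largest differences were those of Angptl4 on Con and of Gdf15 on MR. The interaction had a median of -0.21, with 7 of 9 negative, and its confidence interval excluded 0 for Gdf15 alone.

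After removal of the library labelled WT_CON_7607 the median difference on Con was 0.23, and Angptl4 alone was called, beside 314 of all 13441 genes tested. There NRF2 KO minus WT was 0.25 for Fgf21, 0.02 for Klb, -0.44 for Gdf15, 0.30 for Inhbe, 0.11 for Angptl8, -0.30 for Fetub, 0.39 for Ahsg and 0.23 for Rbp4, beside the value given above for Angptl4. The interaction of Angptl4 grew from -0.52 to -0.70 (95% confidence interval -1.22 to -0.19, adjusted p = 0.55), an interval that excluded 0, and that of Gdf15 was 1.27 (0.40 to 2.13, adjusted p = 0.49). It was -0.40 for Fgf21, -0.19 for Klb, -0.51 for Inhbe, -0.08 for Angptl8, 0.05 for Fetub, -0.07 for Ahsg and -0.18 for Rbp4, none of these called and all with intervals that held 0. The comparisons share mice, so these counts are not independent of each other.

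The mice with the highest Fgf21 were not high for all the genes. As log2 deviation from its group's mean, WT_MR_7609 was the highest of its group for Fgf21 (1.33), Inhbe (1.03), Angptl8 (0.78) and Ahsg (0.29) and the lowest for Angptl4 and Fetub. KO_MR_7631 was the highest of NRF2 KO MR for Fgf21 (1.49), Gdf15 (0.43) and Inhbe (0.76). KO_MR_7632 was the lowest there for Fgf21 (-1.26), Gdf15 (-0.94) and Klb, and WT_CON_7605 the lowest of WT Con for Fgf21 (-1.70), Gdf15 and Angptl4.

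**Figure D4:**
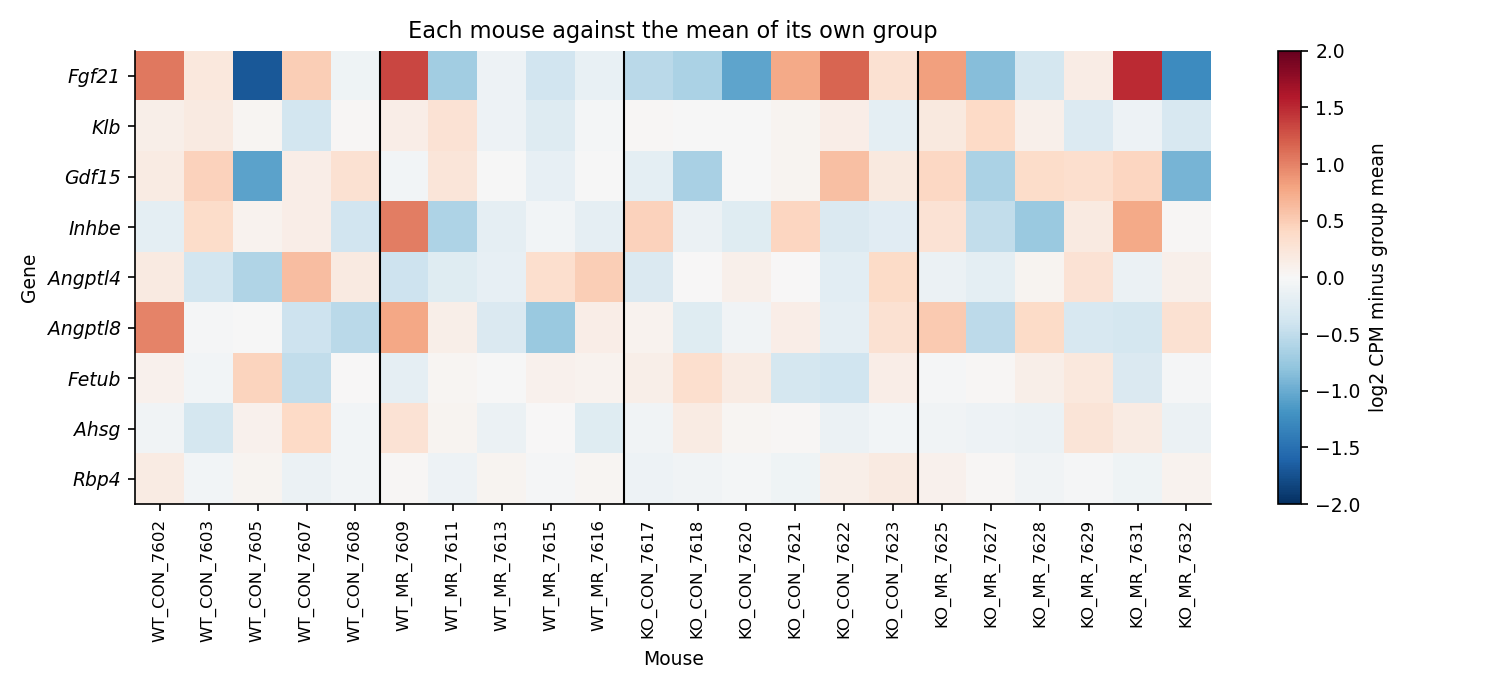
Deviation of each mouse from the mean of its own group (log2 CPM, colour scale, blue below and red above) for the 9 genes, with mice in columns ordered by group. WT_MR_7609 and KO_MR_7631 are high for both Fgf21 and Inhbe, at 1.33 and 1.03 and at 1.49 and 0.76.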

How the data were processed

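RNA of 24 mouse livers, 6 per group, was sequenced by the authors as 3′ libraries with the QuantSeq kit and counted with the kit maker's pipeline. The raw counts per gene are as deposited. The deposited normalized values (a signal without unit) hold these counts after the authors divided each mouse's by its size factor from DESeq2, from 0.434 to 1.59, with a largest relative deviation of 5.1e-15 from that division. The submitters' processing notes name DESeq2 1.18.1, R 3.4.3 and GRCm38. The aligner, the annotation and the strand setting of the count are not given in the sources used here. Symbols came from the files for 13016 genes and from a reference table for 2103, and 41 stayed unnamed. Columns that annotate genes were used only for symbols.

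The 22 mice kept, without WT_CON_7604 and WT_MR_7612, were fitted in edgeR 4.0.16 (R 4.3.3) on the counts, with TMM normalization, its filter by expression, robust dispersions, robust quasi-likelihood F-tests and a mean for each group. The filter kept 13336 genes and left out 1824. A call needed p under 0.05 after Benjamini-Hochberg adjustment, and log2 CPM used a prior count of 2. Intervals are 95% confidence intervals of the fit. The median depth was 14860992 counts in WT Con, 11538109 in WT MR, 15514868 in NRF2 KO Con and 16173155 in NRF2 KO MR. With 1 library per mouse, the SD between mice gives the precision. In 50 pairs of libraries within groups the lowest median chi-square per gene was 1.11, so none agreed within sampling noise.

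Named are the 9 genes, the 5 genes most like Fgf21 and the 2 most like each other called member, up to 3 called genes with the largest change on MR per pathway list and fixed receptors, partners and paralogs. Some genes that meet this rule are not reported here. The members and lists were chosen with earlier results of these data known. Positions are from GENCODE M21 on GRCm38. Alternatives were DESeq2 size factors, library size alone, all genes with a count, at least 10 counts in every mouse, limma 3.58.1 on the deposited normalized values (pseudocount 1), DESeq2 1.42.0, fits of the compared groups alone, all 24 mice with equal or quality weights, a score of 14 clock genes as covariate, each mouse left out in turn and, for the lists and named genes, a fit without the library labelled WT_CON_7607.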

Additional observations from a re-analysis of the deposited data

Results flagged for a closer look

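In 3 of 36 groups of values, 9 genes in 4 groups, 1 mouse stood apart from the rest of its group by Dixon's test at its 95% level, and chance gives about 1 in 20 such groups. Fgf21 was 68.5 CPM in WT_MR_7609 and 16.7 to 25.2 CPM in the other WT MR mice. Inhbe was 46.0 CPM in the same mouse and 14.6 to 21.5 CPM in the others. Angptl8 was 83.5 CPM in WT_CON_7602 and 28.9 to 41.7 CPM in the other WT Con mice.

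The mice that the comparisons leave out had some values outside the range of the 5 WT Con mice, scaled over all 24 mice. Fgf21 was 26.0 CPM in WT_CON_7604 and 36.9 CPM in WT_MR_7612, against at most 10.6 CPM. Gdf15 was 64.3 CPM in WT_CON_7604, against at most 48.6 CPM. That mouse lay below all 5 for Klb (10.2 CPM, against at least 10.8 CPM) and Rbp4 (2759 CPM, against at least 3053 CPM). In WT_MR_7612 Klb was 18.0 CPM (at most 15.9 CPM), Angptl4 94.8 CPM (74.2 CPM), Ahsg 16765 CPM (13672 CPM) and Rbp4 3812 CPM (3732 CPM). WT_MR_7612 was below all 5 WT Con mice for Inhbe (17.5 CPM, against at least 22.8 CPM) and Angptl8 (24.8 CPM, against at least 28.6 CPM). Against the 5 WT MR mice, its own group, it lay inside the range for Fgf21 (16.7 to 68.5 CPM) and Angptl4 (57.2 to 108 CPM). It lay below that range for Klb (18.4 to 27.0 CPM) and Rbp4 (3994 to 4435 CPM) and above it for Ahsg (10886 to 15644 CPM). Its Gdf15, at 20.8 CPM, was also above that of the 5 WT MR mice (13.9 to 18.6 CPM).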

How the results depend on the processing

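The rises of Fgf21, Klb and Rbp4 and the fall of Gdf15 in WT kept their call whichever mouse was left out, and Fgf21 also in NRF2 KO, from 1.68 without KO_MR_7631 to 2.40. The number of genes called of the 9 was, for MR in WT, 5, with 2 when the clock score was a covariate and 4 to 6 with 1 mouse left out. For MR in NRF2 KO it was 2, with 5 by library size alone, 5 by DESeq2, 4 from only the groups compared, 6 with quality weights and 1 to 4 with 1 mouse left out (4 without the library labelled WT_CON_7607, 1 without KO_CON_7620, KO_CON_7623, KO_MR_7625, KO_MR_7627 or KO_MR_7628). For genotype on Con it was 0, with 1 by limma, 2 by DESeq2, 1 with all 24 mice, 1 with quality weights and 0 to 1 with 1 mouse left out (1 without the library labelled WT_CON_7607 or without WT_MR_7616). For genotype on MR it was 0, with 1 by DESeq2, and for the interaction it was 0 throughout. The cause of these changes was not tested.

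Values near 0 changed sign. Gdf15 on MR in NRF2 KO was -0.018 by limma and -0.068 to 0.18 with 1 mouse left out. Fgf21 for genotype on Con was -0.52 with all 24 mice, -0.30 with quality weights and -0.12 to 0.47 with 1 mouse left out, and its interaction 0.32, 0.14 and -0.74 to 0.21. With 1 mouse left out, the ranges that crossed 0 were also -0.58 to 0.38 for Fgf21, -0.39 to 0.17 for Inhbe and -0.12 to 0.27 for Angptl8 for genotype on MR, and -0.51 to 0.058 for Angptl8, -0.17 to 0.051 for Fetub and -0.075 to 0.13 for Ahsg for the interaction. Of 990 values with 1 mouse left out, 943 kept direction and side of the threshold, and of 441 under other alternatives 410 did.

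Over all genes, scaling by library size alone shifted the median by 0.09 in WT and 0.14 in NRF2 KO on the log2 scale and gave 1434 higher and 526 lower genes in WT, against 922 and 921, 2397 and 388 in NRF2 KO, against 831 and 846, and 63 and 165 for genotype on Con, against 107 and 169. Quality weights gave 2739 genes for MR in NRF2 KO. Genotype on Con had 276 genes, with 444 by DESeq2, 99 from only the groups compared, 26 with the clock score (4 higher and 22 lower) and as few as 181 with 1 mouse left out. Genotype on MR had 258, with 496 by DESeq2, 600 from only the groups compared and 615 with quality weights. The interaction had 6, with 36 by DESeq2, 4 with all 24 mice, 4 with the clock score and 3 to 12 with 1 mouse left out. The fit of only the groups compared has no interaction value. Each alternative was run for the 9 genes and for the counts over all genes, and the counts of lists and the other named genes were repeated only without the library labelled WT_CON_7607, an alternative chosen after seeing the data. No paired analysis was possible because the groups share no replicate numbers. With 5 or 6 mice per group, the confidence intervals of the interaction limit what can be said of a difference between genotypes.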

Other observations

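Other secreted proteins of hepatocytes with hormone action were counted beside the 9 genes. Of 25 tested, 4 rose and 4 fell on MR in WT, and 3 rose and 4 fell in NRF2 KO. With the library labelled WT_CON_7607 left out, 4 rose and 5 fell in WT. Tsku, the gene of tsukushi, rose from 4.34 ± 3.20 to 21.4 ± 5.56 CPM in WT (log2 fold change 2.23, adjusted p = 0.0026 by edgeR), with every MR mouse above every Con mouse, and had 2.68 ± 1.56 and 3.29 ± 1.14 CPM in NRF2 KO (0.37, adjusted p = 0.66). On MR it was lower in every NRF2 KO mouse than in every WT mouse (-2.67, adjusted p = 0.0012), and its interaction had an adjusted p of 0.47. Orm2, an acute phase protein, fell from 2.63 ± 1.45 to 0.41 ± 0.28 CPM in WT (-2.64, adjusted p = 0.0015) and from 1.54 ± 0.52 to 0.55 ± 0.41 CPM in NRF2 KO (-1.52, adjusted p = 0.027). Gpnmb, a membrane glycoprotein also made by macrophages, fell in WT, from 6.01 ± 7.54 to 0.23 ± 0.40 CPM (adjusted p = 0.027, and 0.061 without the library labelled WT_CON_7607), with a spread as large as its mean, and macrophage markers fell in the same mice.

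Clock genes moved with diet in WT and with genotype on Con. Of 14, 6 rose and 2 fell on MR in WT, 1 rose and 1 fell in NRF2 KO, and 6 rose and 3 fell in NRF2 KO against WT on Con. For NRF2 KO against WT on MR, 1 was higher and 1 lower. Over all genes tested 13.8% were called on MR in WT and 12.6% in NRF2 KO. For genotype 2.07% were called on Con and 1.93% on MR. Without the library labelled WT_CON_7607, 4 rose and 2 fell on MR in WT. Ciart rose from 2.10 ± 1.53 to 7.22 ± 3.51 CPM on MR in WT (1.69, adjusted p = 0.0097) and had 8.25 ± 1.87 and 10.2 ± 1.21 CPM in NRF2 KO. Npas2 fell from 0.87 ± 0.32 to 0.31 ± 0.26 CPM in WT (adjusted p = 0.043, and 0.066 without the library labelled WT_CON_7607) and was lower in NRF2 KO Con, at 0.15 ± 0.10 CPM, than in WT Con (adjusted p = 0.01). Bhlhe41 had -1.40 (adjusted p = 0.069) in WT, or -1.62 (adjusted p = 0.034) without that library, and fell by 1.64 on the log2 scale in NRF2 KO (adjusted p = 0.033). The score of these genes used as a covariate ran from 0.19 to 1.39 in WT Con, from -0.29 to 0.43 in WT MR, from -0.42 to -0.13 in NRF2 KO Con and from -0.38 to -0.28 in NRF2 KO MR.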
